A study of Mus musculus with 12 samples.

Results

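Macrophage RNA from mouse melanomas treated with a CD40 agonist was set against that from melanomas treated with an inhibitor of the CSF1 receptor (CSF1Ri), by comparing all samples of these single-agent groups. They are 6 of the 12 libraries of the series, 3 per group. The CD40 agonist was the rat antibody FGK4.5, which switches CD40 on. It was injected intraperitoneally, 10 mg/kg every 3 days and up to 10 times. CSF1Ri mice were fed chow holding PLX6134 at 600 mg/kg. The combination received both agents and Control neither, and these 6 other libraries served to estimate the spread and to place the levels. In all groups melanomas were induced locally in mice that carry Tyr::CreER, a Cre recombinase under the tyrosinase promoter, which is active in melanocytes. The other alleles of these mice are not reported here. Treatment began 30 days after induction, while tumors together measured less than 100 mm3, and ran for 30 days or until an endpoint of 2 cm3. Normal chow was the alternative to drug chow, and the protocol names PBS as the vehicle for the antibody. The mice were age-matched, and the sources used here state no age. Each sample pooled at least 3 tumors, so a library does not show how single tumors vary. Whether replicates came from different cages or days is not stated in the labels, and the p-values therefore reflect only how far pooled samples of a group differ, which may be technical.

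CD40 is a receptor of the TNF receptor family on B cells, dendritic cells and macrophages. Its ligand sits on activated T cells, and signalling through TRAF adaptors and NF-kB leads to cytokine release and to display of antigen on MHC class II. CSF1R is the receptor tyrosine kinase through which CSF1 and IL-34 keep most macrophages alive and maintain their identity, and its inhibitors lower macrophage numbers in many tissues. The direct comparison asks where macrophage RNA from tumors treated by engaging the one receptor differs from that after blocking the other.

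RNA was measured by sequencing, and the deposited estimated counts were summed per gene. Totals were 33221206, 26316328 and 33948213 estimated counts with the CD40 agonist, against 29796605, 26665394 and 32880763 with CSF1Ri. Levels below are CPM, counts per 1000000 after TMM scaling, with the 3 libraries of a group always listed as replicates 1, 2 and 3. Some libraries stood apart from their group. CSF1Ri replicate 3 lay at 32.7 on the second principal component, where the other CSF1Ri libraries lay at -22.2 and -24.0, and CD40 agonist replicate 1 lay at -116 on the third, where its partners lay at -12.8 and 3.71. Results that rest on CSF1Ri replicates 1 and 2 are therefore given with replicate 3 shown. The label of tumor-associated macrophages was checked against 10 markers, all of which were measured. Cd68, a lysosomal glycoprotein of macrophages, had 599, 723 and 687 CPM with the CD40 agonist, against 718, 765 and 622 CPM with CSF1Ri. Lyz2, lysozyme of myeloid cells, had 16020.5, 15929 and 11974 CPM with the CD40 agonist, against 22047, 22083 and 20438 CPM with CSF1Ri. Both were high in all 6 libraries, and Csf1r was present in all. C1qa, a complement chain of tissue macrophages, had 30.4, 63.7 and 109 CPM with the CD40 agonist, against 0.0679, 0.937 and 5.54 CPM with CSF1Ri, so this marker was near 0 in CSF1Ri replicates 1 and 2. Markers of T, B and NK cells, granulocytes and dendritic cells were measured too, and the labels give no sorting gate for the sequenced cells. Their levels are given beside the results they moved with. In bulk RNA, fewer cells of a type and less RNA per cell cannot be told apart.

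With the CD40 agonist, 3 MHC class II genes, the cytokine Tnf, 4 immediate early genes, the monocyte receptor gene Cd300e and 2 NK cell genes were higher than with CSF1Ri. The cytokine Csf1, 3 eosinophil genes and the neutrophil gene Retnlg were lower. Of 16027 genes tested with edgeR's quasi-likelihood test, 62 (0.387%) had a Benjamini-Hochberg adjusted p below 0.05. With the CD40 agonist 40 of them (0.250% of all tested) were higher and 22 (0.137%) lower. Rises and falls below are with the CD40 agonist relative to CSF1Ri, and not relative to Control. The smallest absolute log2 fold change (CD40 agonist over CSF1Ri) among them was 0.51 and the median 1.82. In each of the 62 genes the 3 values of one group lay wholly above the 3 of the other. Such separation also occurred without a call. It was found for 1803 genes (11.2%) with the CD40 agonist higher and 1624 (10.1%) with it lower, and 2247 genes had an unadjusted p below 0.05. Over all genes the median log2 fold change was 0.02, with 8272 (51.6%) higher with the CD40 agonist and 7743 lower. For 55 of the 62 (88.7%) the Control mean lay between the means of the treated groups, as it did for 6761 (42.2%) of all genes tested. These 62 genes were chosen by the difference that this position describes, so the larger share is no test.

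**Figure D1:**
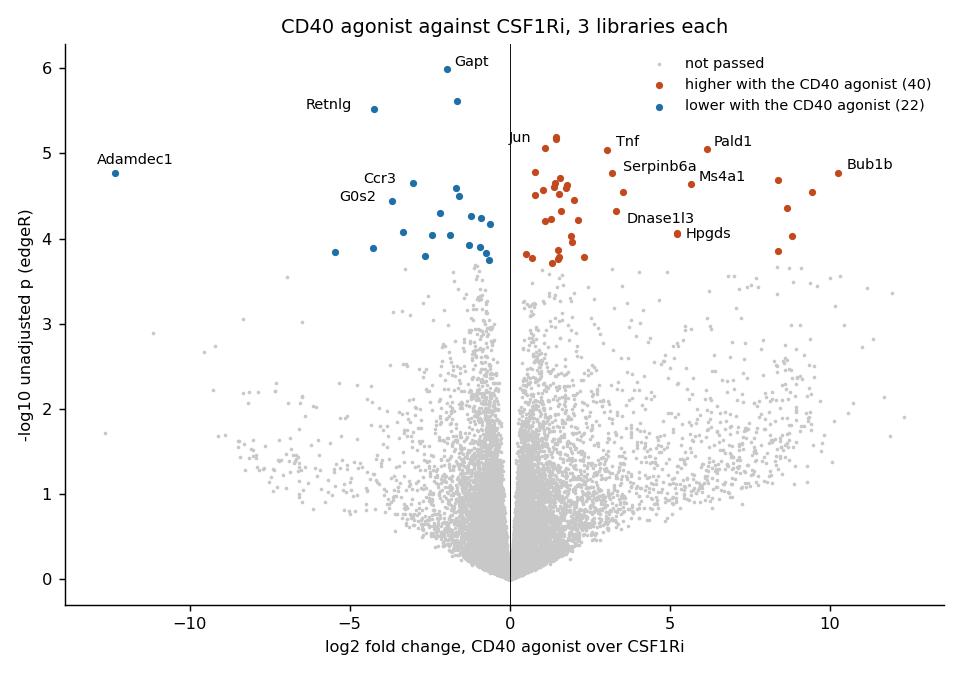
Each point is 1 of 16027 genes, with the log2 fold change of the CD40 agonist over CSF1Ri on the horizontal axis and -log10 of the unadjusted p from edgeR on the vertical axis. Coloured points are the 40 genes that were higher and the 22 that were lower; fitted fold changes at the far sides belong to genes with no count in one group, such as Adamdec1 and Bub1b, and are not bounds.

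The number of calls depended on single libraries. With CD40 agonist replicate 2 left out, no gene was called and 1902 had an unadjusted p below 0.05. Leaving out replicate 1 or replicate 3 of the CD40 agonist gave 26 and 14 calls. Leaving out CSF1Ri replicate 1 or replicate 2 gave 6 calls each, whereas leaving out CSF1Ri replicate 3 gave 142, of which 50 were among the 62. Leaving out combination replicate 2, which enters only the estimate of the spread, gave 218 calls, including all 62. Without Control replicate 1, 2 or 3 there were 37, 46 and 32 calls. No called gene changed direction in any of these fits. Gapt, Gm9973 and Retnlg were called in 11 of the 12, and Cd82 in 10.

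**Figure D2:**
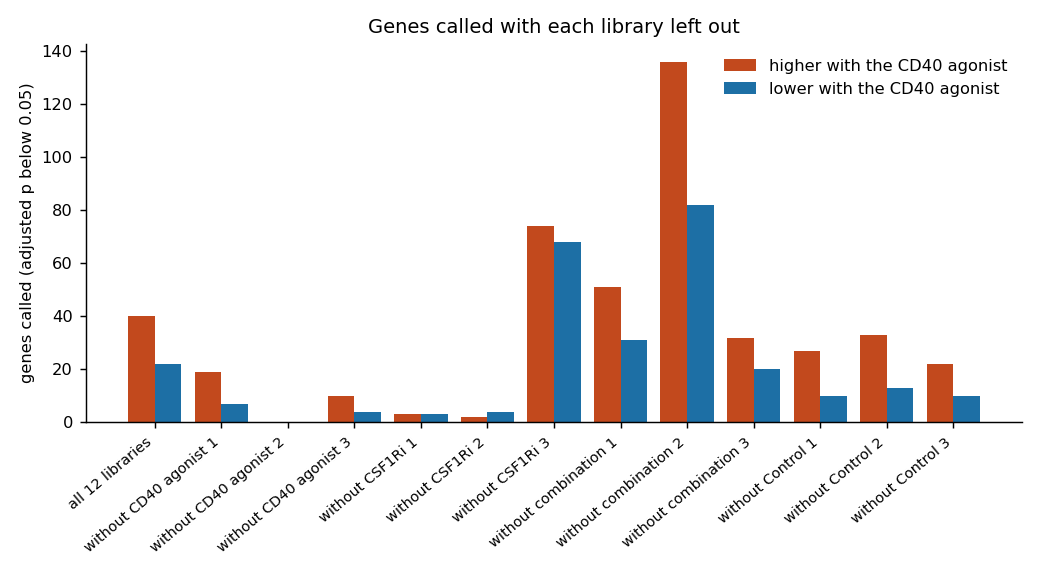
Bars count the genes with an adjusted p below 0.05 (vertical axis) that were higher or lower with the CD40 agonist, in the fit of all 12 libraries and with each library left out in turn (horizontal axis). Counts ran from 0 without CD40 agonist replicate 2 to 218 without combination replicate 2.

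The targets of the drugs themselves did not pass the test. Csf1r (ENSMUSG00000024621, chromosome 18, 61100598 to 61132149, plus strand) had 866, 1043 and 1032 CPM with the CD40 agonist, against 773, 624 and 644 CPM with CSF1Ri, with a log2 fold change of 0.53 ± 0.21 (SE) and an adjusted p of 0.304. The values did not overlap, with all CD40 agonist libraries above all CSF1Ri libraries, and Control stood at 859 ± 16.6 CPM (SD, n = 3). Cd40 (ENSMUSG00000017652, chromosome 2, 165055627 to 165072948, plus strand) had 99.1, 129 and 121 CPM with the CD40 agonist, against 62, 60.4 and 109 CPM with CSF1Ri, and CSF1Ri replicate 3 lay within the range of the CD40 agonist. Its log2 fold change was 0.59 ± 0.26, with an adjusted p of 0.347. Neither agent removes its target gene, so these levels do not check the labels.

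Csf1, the main ligand of the CSF1 receptor, was the axis gene that changed. Csf1 (ENSMUSG00000014599, chromosome 3, 107741048 to 107760469, minus strand) had 33.5, 27.6 and 20.2 CPM with the CD40 agonist, against 90.4, 132 and 71.7 CPM with CSF1Ri. Every CD40 agonist library was below every CSF1Ri library, and CSF1Ri replicate 2 was the highest. The log2 fold change was -1.86 ± 0.31 with an adjusted p of 0.0324, so Csf1 fell 3.62-fold with the CD40 agonist relative to CSF1Ri. The combination had 74.9 ± 19.2 CPM and Control 30.7 ± 9.38 CPM (SD, n = 3 each). The call was made in 5 of the 12 fits with a library left out. Of the 17 measured of 18 genes of the CSF1 receptor axis and myeloid lineage factors, Csf1 alone passed. The other members included Nr4a1, a nuclear receptor needed for non-classical monocytes, at 807, 550.3 and 613 CPM with the CD40 agonist, against 375, 390.4 and 413 CPM with CSF1Ri (adjusted p 0.128), and Csf3r, the receptor for the granulocyte growth factor G-CSF, at 134, 152 and 148 CPM with the CD40 agonist, against 678, 641 and 191 CPM with CSF1Ri (adjusted p 0.196). In Csf3r, CSF1Ri replicates 1 and 2 stood far above replicate 3.

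None of the 16 genes of CD40 receptor and TRAF signalling passed. Their median log2 fold change was 0.15, 10 were higher and 6 lower. Nearest to the threshold was Tnfsf9, the ligand of the co-stimulatory receptor 4-1BB, with 50.6, 34.3 and 20.7 CPM with the CD40 agonist, against 14.5, 12.9 and 5.45 CPM with CSF1Ri (log2 fold change 1.69 ± 0.46, adjusted p 0.144). Bcl2a1b, a survival factor of the BCL2 family with near-identical neighbours, had 168, 213 and 200.2 CPM with the CD40 agonist, against 106, 89.5 and 152 CPM with CSF1Ri (adjusted p 0.304). Among 16 genes of canonical NF-kB and its feedback, none passed and the median was 0.13, a sign that turned without CSF1Ri replicate 3. The closest was Nfkbiz, a nuclear NF-kB cofactor, with 402, 317 and 307 CPM with the CD40 agonist, against 194, 171 and 100.3 CPM with CSF1Ri and an adjusted p of 0.0883.

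With the CD40 agonist 3 MHC class II genes rose. Class II genes encode the paired chains that hold peptides for helper T cells and the proteins that load them. H2-Aa, the alpha chain of I-A, had 3902, 5526 and 6738 CPM with the CD40 agonist, against 1785, 1882 and 2556 CPM with CSF1Ri. H2-Ab1, its beta chain, had 2727, 3968 and 5262 CPM with the CD40 agonist, against 1414, 1469 and 1987 CPM with CSF1Ri. H2-Eb1, the beta chain of I-E, had 2228, 3135 and 4063 CPM with the CD40 agonist, against 897, 973 and 1342 CPM with CSF1Ri. In all 3 genes every CD40 agonist library exceeded every CSF1Ri library, replicate 3 was the highest in both groups, and the rise was 2.6-, 2.45- and 2.93-fold. Log2 fold changes were 1.38 ± 0.20 for H2-Aa (adjusted p 0.019), 1.30 ± 0.21 for H2-Ab1 (adjusted p 0.0262) and 1.55 ± 0.22 for H2-Eb1 (adjusted p 0.019). These calls were made in 8, 5 and 8 of the 12 fits with a library left out. Control means were 4109 ± 264, 3111 ± 148 and 2155 ± 188 CPM (SD, n = 3), between the treated groups for each gene.

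The other class II genes did not pass. Cd74, the invariant chain that escorts class II molecules, had 13800.0, 20394 and 27398 CPM with the CD40 agonist, against 8181, 8849 and 12576 CPM with CSF1Ri (adjusted p 0.0675). H2-DMb2, a chain of the peptide-loading catalyst, had 148, 181 and 271 CPM with the CD40 agonist, against 33.6, 48.8 and 57.9 CPM with CSF1Ri (adjusted p 0.106). In all, 3 of 12 class II genes passed, where 0.387% of all genes did. Of the 12, 11 were higher and the median log2 fold change was 0.82. Without overlap between the groups 10 were higher, where 11.2% of all genes were. B cells and dendritic cells also carry class II. The summed level of 10 measured B cell markers of 11 was 1023, 753 and 1041 CPM with the CD40 agonist, against 309, 233 and 267 CPM with CSF1Ri, without overlap. The antibody genes Igkc, Ighm and Jchain made up most of that sum in every library, so the sum mainly follows them. Igkc, the highest, had 605, 289 and 522 CPM with the CD40 agonist, against 111, 18 and 60.2 CPM with CSF1Ri (adjusted p 0.323). For Jchain the adjusted p was 0.347. The summed level of 12 dendritic cell markers was 2063, 2548 and 2352 CPM with the CD40 agonist, against 1065, 1113 and 2895 CPM with CSF1Ri, where CSF1Ri replicate 3 was the highest of the 6. The part of these cells in the class II values was not tested.

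The promoters of 2 of these genes are shown because class II promoters share a conserved element, the Y box, bound by the factor NF-Y. A script searched the 250 bases before the start site, on both strands, for the letters CTGATTGG, which are in capitals. The sequences are from RefSeq on GRCm38.p6, 5′ to 3′, with H2-Aa at chr17:34287824-34288073 on the minus strand and H2-Eb1 at chr17:34305617-34305866 on the plus strand.
H2-Aa: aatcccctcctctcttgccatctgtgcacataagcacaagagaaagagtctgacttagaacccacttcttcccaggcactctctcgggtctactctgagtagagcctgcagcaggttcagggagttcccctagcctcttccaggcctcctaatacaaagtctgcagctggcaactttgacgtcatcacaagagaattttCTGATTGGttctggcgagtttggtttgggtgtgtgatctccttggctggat
H2-Eb1: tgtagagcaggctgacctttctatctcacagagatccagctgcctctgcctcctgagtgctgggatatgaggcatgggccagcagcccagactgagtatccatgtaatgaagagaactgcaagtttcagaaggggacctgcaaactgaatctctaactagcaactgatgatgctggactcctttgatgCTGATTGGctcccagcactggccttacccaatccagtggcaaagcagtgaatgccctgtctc
The match began 51 bases before the start site in H2-Aa and 62 bases before it in H2-Eb1. It was present in 4 of the 9 class II genes matched to the table (H2-Aa, H2-Eb1, H2-Eb2 and H2-Oa) and in 3.83% of all 32851 promoters of this length. A match is a description of the letters and not a measured binding site.

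Tnf, the inflammatory cytokine tumor necrosis factor, was among the largest rises. Tnf (ENSMUSG00000024401, chromosome 17, 35199381 to 35202007, minus strand) had 115, 76.2 and 58.8 CPM with the CD40 agonist, against 11.1, 12.5 and 6.996 CPM with CSF1Ri. The groups were far apart, with CD40 agonist replicate 1 the highest and CSF1Ri replicate 3 the lowest. The log2 fold change was 3.03 ± 0.39, a rise of 8.19-fold, with an adjusted p of 0.0182, and it was called in 9 of the 12 fits with a library left out. The combination was at 168 ± 87.6 CPM and Control at 22.3 ± 2.15 CPM (SD, n = 3 each), the Control mean lying between the single agents. Tnf was the only one of 20 inflammatory cytokines to pass, and 12 of the 20 were lower, with a median log2 fold change of -0.36. That sign turned without CSF1Ri replicate 2, with limma voom and with a replicate block.

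The other cytokines had mixed directions. Il6, which drives acute-phase signalling, had 20.7, 28.9 and 14.8 CPM with the CD40 agonist, against 41.5, 56.1 and 44.9 CPM with CSF1Ri, without overlap (log2 fold change -1.15 ± 0.31, adjusted p 0.137). Il1b, a cytokine matured by inflammasomes, had 293, 322 and 284 CPM with the CD40 agonist, against 1649, 1302 and 232 CPM with CSF1Ri (adjusted p 0.201). CSF1Ri replicates 1 and 2 held the high Il1b values and replicate 3 lay below all CD40 agonist libraries. Tnfsf13b, the B cell survival factor BAFF, had 22.1, 14.7 and 24.7 CPM with the CD40 agonist, against 8.76, 4.46 and 8.54 CPM with CSF1Ri (adjusted p 0.144).

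Of the 20 immediate early genes 4 rose, where 0.250% of all genes were called higher. Such genes are switched on within minutes of a stimulus, including tissue digestion, and in all 12 of the 20 were higher and the median log2 fold change was 0.11. Atf3, a stress-induced transcription factor, had 367, 253 and 250.2 CPM with the CD40 agonist, against 131, 88.3 and 67.2 CPM with CSF1Ri (log2 fold change 1.60 ± 0.25, adjusted p 0.0236). Jun, a subunit of AP-1, had 124, 105 and 112 CPM with the CD40 agonist, against 51.5, 57.4 and 49.1 CPM with CSF1Ri (log2 fold change 1.11 ± 0.14, adjusted p 0.0182). All CD40 agonist libraries lay above all CSF1Ri libraries in both genes. Dusp2, a phosphatase that switches off MAP kinases, had 65.3, 49.5 and 46.2 CPM with the CD40 agonist, against 14.8, 12.4 and 12.7 CPM with CSF1Ri (log2 fold change 2.01 ± 0.30, adjusted p 0.0199). Klf4, a transcription factor of monocytes, had 178, 166 and 182 CPM with the CD40 agonist, against 93, 115 and 94.6 CPM with CSF1Ri (log2 fold change 0.80 ± 0.12, adjusted p 0.019). For Klf4, Control stood at 161 ± 2.34 CPM (SD, n = 3), close to the CD40 agonist, whereas for Atf3 it stood at 79.9 ± 8.89 CPM, close to CSF1Ri. Fosl2, another AP-1 subunit, went the other way at 144, 89.7 and 92.3 CPM with the CD40 agonist, against 328, 320.3 and 143 CPM with CSF1Ri (adjusted p 0.0883), with overlap. Of 14 heat shock genes, which also respond to handling, none passed and the median was 0.18. The part of digestion in these values was not tested.

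**Figure D3:**
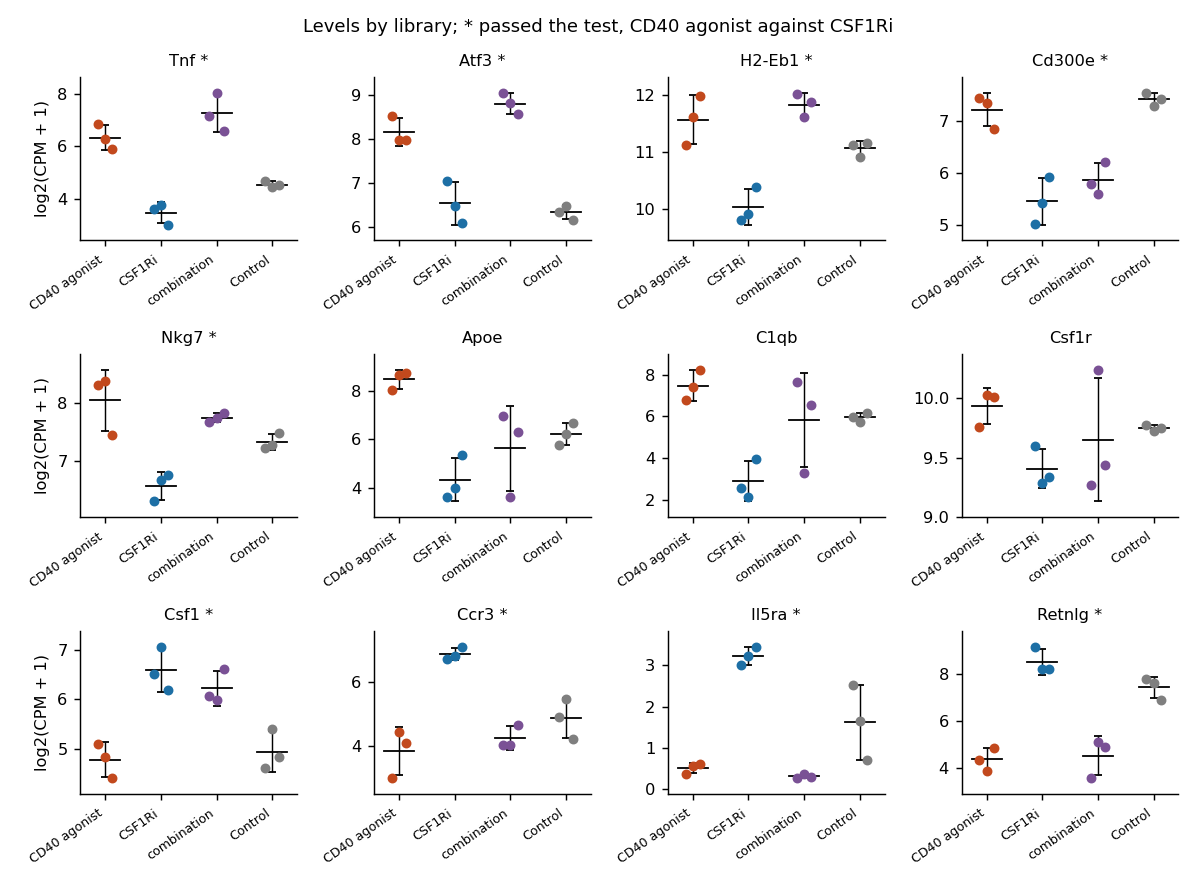
Levels on the log2(CPM + 1) scale (vertical axis) of 12 genes in the 12 libraries, by group (horizontal axis), with points for libraries, a long bar for the mean and whiskers for 1 SD (n = 3). The CD40 agonist libraries lie above the CSF1Ri libraries for Tnf, Atf3, H2-Eb1, Cd300e, Nkg7, Apoe, C1qb and Csf1r, and below them for Csf1, Ccr3, Il5ra and Retnlg; an asterisk marks the genes that passed the test.

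Chemokine genes, which attract leukocytes, did not pass. Of 12 CXC chemokines 11 were higher, and the median log2 fold change was 1.72. Without overlap 6 were higher, where 11.2% of all genes were. Cxcl1, a neutrophil attractant, had 72.5, 196 and 74.4 CPM with the CD40 agonist, against 38.2, 40.5 and 6.59 CPM with CSF1Ri (adjusted p 0.182), and Pf4, a platelet and macrophage chemokine, had 32.8, 56.6 and 53.5 CPM with the CD40 agonist, against 2.92, 2.55 and 5.68 CPM with CSF1Ri (adjusted p 0.141). Cxcl14, a chemokine of skin, had 0.235, 2.08 and 2.99 CPM with the CD40 agonist and no count with CSF1Ri (adjusted p 0.149). All CD40 agonist libraries lay above all CSF1Ri libraries in these 3 genes, and in Cxcl14 CD40 agonist replicate 1 was itself low. Among 13 CC chemokines 9 were higher, with a median of 0.38. Ccl5, which attracts T cells, had 906, 1255 and 735 CPM with the CD40 agonist, against 286, 360.1 and 642 CPM with CSF1Ri (adjusted p 0.134).

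Genes of macrophage identity had large differences that missed the threshold. Apoe, the lipid carrier that macrophages secrete, had 256, 399 and 424 CPM with the CD40 agonist, against 11.4, 15 and 39 CPM with CSF1Ri. C1qb, a chain of the complement starter C1q, had 109, 169.8 and 299 CPM with the CD40 agonist, against 4.82, 3.37 and 14.5 CPM with CSF1Ri. No value overlapped between the groups, and CSF1Ri replicate 3 was the highest CSF1Ri library for both genes. Log2 fold changes were 4.04 ± 0.76 for Apoe (adjusted p 0.0532) and 4.66 ± 0.97 for C1qb (adjusted p 0.0672). Control lay between, at 75.3 ± 23.2 CPM for Apoe and 61.2 ± 8.91 CPM for C1qb (SD, n = 3). C1qa and C1qc, the partner chains, had log2 fold changes of 4.93 ± 1.38 and 5.12 ± 1.32 (adjusted p 0.149 and 0.123). Aif1, the calcium-binding protein IBA1, had 157, 220.3 and 275 CPM with the CD40 agonist, against 80.1, 75.2 and 124 CPM with CSF1Ri (adjusted p 0.0546), and Axl, a receptor for dying cells, had 31, 75.8 and 119.8 CPM with the CD40 agonist, against 0.306, 13.2 and 2.57 CPM with CSF1Ri (adjusted p 0.144).

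Over the 24 measured of 25 identity and efferocytosis genes, none passed, 17 were higher, 11 had no overlap with the CD40 agonist higher and 1 with it lower, and the median log2 fold change was 1.20. Of 14 complement genes none passed, 10 were higher and the median was 0.75. The 10 general macrophage markers had a median of -0.08. Without overlap, 4 of them were higher and 1 lower with the CD40 agonist, against 11.2% and 10.1% of all genes. Their summed level was 18394, 18798 and 14912 CPM with the CD40 agonist, against 24695, 24509 and 22496 CPM with CSF1Ri, lower with the CD40 agonist in every library. Lyz2 made up most of that sum, so the sum mainly follows this 1 gene. Its log2 fold change was -0.56 ± 0.29 (adjusted p 0.42). Lipid handling genes were mixed. Cd36, a scavenger receptor for oxidized lipid, had 241, 443 and 239.8 CPM with the CD40 agonist, against 79.3, 45.7 and 120.1 CPM with CSF1Ri (adjusted p 0.0672), and Apoc2, the activator of lipoprotein lipase, had 40.6, 28.9 and 26.8 CPM with the CD40 agonist, against 4.07, 4.27 and 2.24 CPM with CSF1Ri (adjusted p 0.0525). Neither overlapped, but none of the 19 lipid genes passed and their median was 0.20. Mmp12, the macrophage elastase, had 168, 297 and 353 CPM with the CD40 agonist, against 24.4, 39.5 and 22.6 CPM with CSF1Ri (adjusted p 0.0707), and none of 15 metalloproteinase genes passed (median -0.21). Of 19 alternative activation genes none passed and 13 were higher, with a median of 0.79. Mgl2, a galactose-binding lectin, had 324, 361 and 487 CPM with the CD40 agonist, against 52.2, 59.5 and 66.9 CPM with CSF1Ri (adjusted p 0.169), and Trem2, a lipid-sensing receptor, had 60.9, 65.7 and 69.6 CPM with the CD40 agonist, against 19.995, 29.8 and 20.1 CPM with CSF1Ri (adjusted p 0.169).

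The gene lists of the monocyte subsets had medians of opposite sign. Cd300e, an activating receptor of non-classical monocytes, the patrolling cells of the vessel wall, had 175, 162 and 115 CPM with the CD40 agonist, against 31.4, 41.6 and 59.5 CPM with CSF1Ri. Its log2 fold change was 1.77 ± 0.26, a level 3.41-fold that with CSF1Ri, with an adjusted p of 0.019, and all values were apart. The combination was at 58.2 ± 13.5 CPM and Control at 171 ± 14.6 CPM (SD, n = 3 each). Cd300e was the 1 of 18 non-classical genes to pass, where 16 were higher, with a median of 0.58. Without overlap 11 of the 18 were higher, against 11.2% of all genes. S1pr5, a sphingosine receptor needed for exit from bone marrow, had 36.9, 32.1 and 20.6 CPM with the CD40 agonist, against 12.2, 12.7 and 14.2 CPM with CSF1Ri (adjusted p 0.107).

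None of 16 classical monocyte genes passed, 14 were lower with the CD40 agonist, and the median log2 fold change was -0.67. Without overlap 8 were lower, where 10.1% of all genes were. Vcan, the proteoglycan versican of inflammatory monocytes, had 76.1, 63 and 62 CPM with the CD40 agonist, against 329, 298 and 126 CPM with CSF1Ri (adjusted p 0.114). F13a1, a clotting factor subunit of monocytes, had 522, 611 and 405 CPM with the CD40 agonist, against 1365, 1284 and 786 CPM with CSF1Ri (adjusted p 0.202). CSF1Ri replicate 3 was the lowest CSF1Ri library for both and nearest to the CD40 agonist. Without it the log2 fold change was -2.20 for Vcan (adjusted p 0.0611) and -1.35 for F13a1 (adjusted p 0.153).

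**Figure D4:**
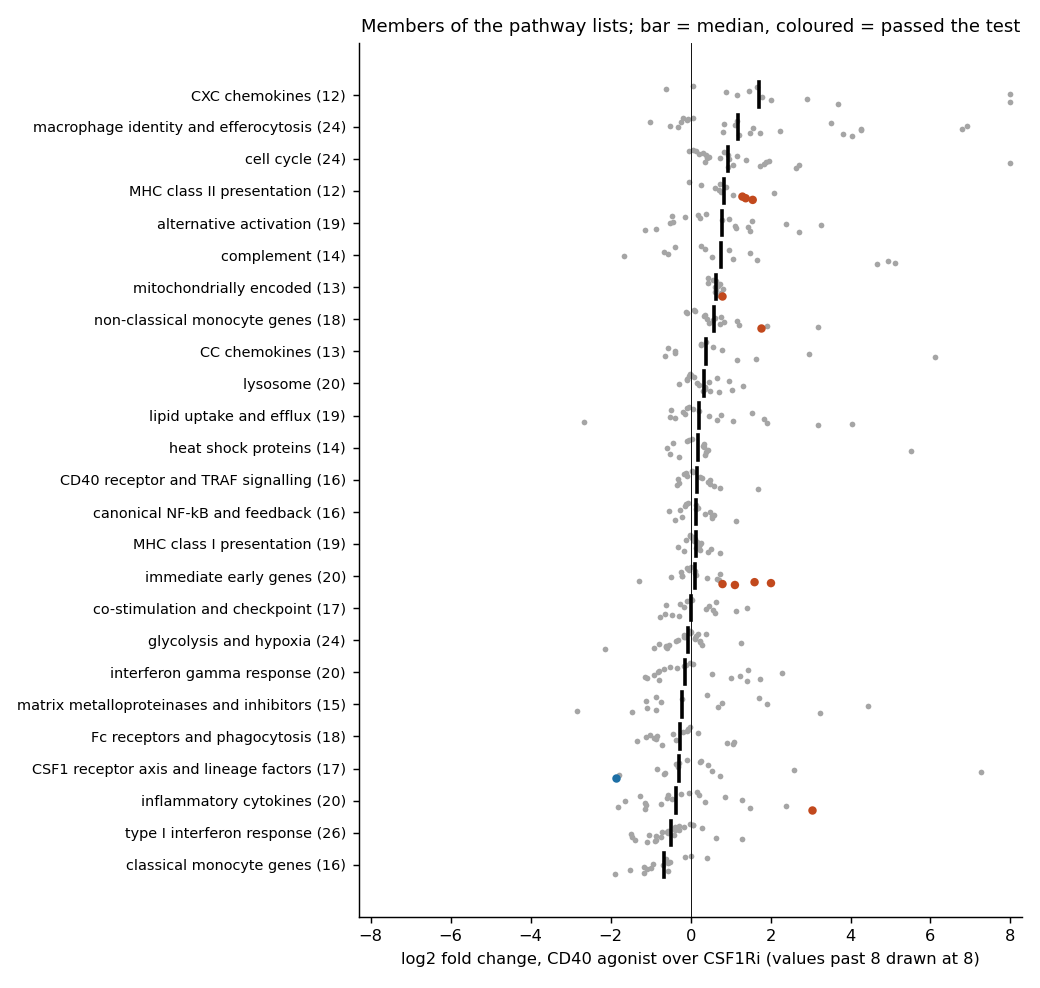
Log2 fold changes of the CD40 agonist over CSF1Ri (horizontal axis) for the measured members of 25 pathway lists (rows, number measured in brackets), with a black bar at each median and coloured points for members that passed the test. Medians run from -0.67 for classical monocyte genes to 1.72 for CXC chemokines, and few members are coloured.

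With the CD40 agonist 3 eosinophil genes fell. Eosinophils are granulocytes of allergic and parasite responses that depend on the cytokine IL-5. Ccr3, the eotaxin receptor by which eosinophils migrate, had 6.97, 20.5 and 16 CPM with the CD40 agonist, against 103, 111 and 136 CPM with CSF1Ri. Il5ra, the IL-5 receptor chain, had 0.294, 0.472 and 0.523 CPM with the CD40 agonist, against 6.99, 8.36 and 9.94 CPM with CSF1Ri. In both genes all CSF1Ri libraries were high and alike, with no overlap. The log2 fold change was -3.01 ± 0.43 for Ccr3 (ENSMUSG00000035448, chromosome 9, 124021972 to 124031689, plus strand), with an adjusted p of 0.019, and -4.28 ± 0.75 for Il5ra (ENSMUSG00000005364, chromosome 6, 106710357 to 106749037, minus strand), with an adjusted p of 0.0415. Ccr3 thus fell 8.06-fold and Il5ra 19.5-fold relative to CSF1Ri. Control means were 30.05 ± 13 and 2.51 ± 2.08 CPM (SD, n = 3). Ear6, an eosinophil ribonuclease with near-identical family members and so an uncertain level, had 1.88, 1.57 and 2.06 CPM with the CD40 agonist, against 11, 9.89 and 35 CPM with CSF1Ri (log2 fold change -3.34 ± 0.55, adjusted p 0.0324). CSF1Ri replicate 3 was by far the highest, and without it the log2 fold change was -2.48 (adjusted p 0.0553). Calls were made for Ccr3, Il5ra and Ear6 in 8, 4 and 3 of the 12 fits with a library left out.

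These 3 of 9 measured eosinophil markers of 10 passed, where 0.387% of all genes did. Of the 9, 7 were lower, with a median log2 fold change of -3.01. Siglecf, a surface lectin of eosinophils, had 0.0882, 0.432 and 2.94 CPM with the CD40 agonist, against 19.2, 11.7 and 38.4 CPM with CSF1Ri (adjusted p 0.183). Prg2, the granule major basic protein, was at 0 in all CD40 agonist libraries and had 4.11, 0 and 3.03 CPM with CSF1Ri (adjusted p 0.169). Ear2, a family member also made by monocytes, had 53.6, 33.7 and 41.3 CPM with the CD40 agonist, against 30.2, 33.4 and 31.2 CPM with CSF1Ri (adjusted p 0.426). Alox15, the marker with the highest mean level, had 76.9, 74.6 and 127 CPM with the CD40 agonist, against 145, 124 and 111 CPM with CSF1Ri. Its values overlapped (adjusted p 0.64). The summed level of the 9 markers was 165, 146 and 211 CPM with the CD40 agonist, against 362, 323 and 389.8 CPM with CSF1Ri, without overlap. With the CD40 agonist, Alox15 and Ear2 made up most of that sum.

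The promoters of Ccr3 and Il5ra are shown with the letters AGATAA in capitals, since GATA1 is the factor that makes eosinophils from their progenitors and binds such letters. Sequences are the 250 bases before the start site from RefSeq on GRCm38.p6, 5′ to 3′, at chr9:124021721-124021970 on the plus strand for Ccr3 and chr6:106749038-106749287 on the minus strand for Il5ra. Both strands were searched.
Ccr3: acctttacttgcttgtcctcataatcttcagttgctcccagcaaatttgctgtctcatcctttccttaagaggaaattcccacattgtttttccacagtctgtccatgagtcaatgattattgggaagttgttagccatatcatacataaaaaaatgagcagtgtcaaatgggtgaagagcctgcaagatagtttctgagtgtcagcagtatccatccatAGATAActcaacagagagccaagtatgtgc
Il5ra: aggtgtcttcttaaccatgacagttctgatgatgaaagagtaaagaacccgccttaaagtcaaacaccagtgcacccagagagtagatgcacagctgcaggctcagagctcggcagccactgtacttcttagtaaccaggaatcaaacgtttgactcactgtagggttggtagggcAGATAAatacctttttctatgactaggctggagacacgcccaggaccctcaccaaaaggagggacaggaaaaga
The match began 30 bases before the start site in Ccr3 and 74 bases before it in Il5ra. Of the 7 measured eosinophil markers matched to the table, 3 held it (Ccr3, Il5ra and Cd101), and 9.99% of all 32851 promoters of this length did. Letters alone do not show that a factor was bound.

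Genes of neutrophils, basophils and mast cells had lower values in many cases, and for several the high CSF1Ri libraries were replicates 1 and 2. Retnlg, a secreted resistin-like protein of neutrophils, was high in all of the CSF1Ri libraries. Retnlg (ENSMUSG00000022651, chromosome 16, 48872621 to 48874496, plus strand) had 19.4, 13.8 and 28.1 CPM with the CD40 agonist, against 572, 296 and 292 CPM with CSF1Ri, with a log2 fold change of -4.24 ± 0.49 and an adjusted p of 0.016. It fell 18.9-fold and was called in 11 of the 12 fits with a library left out. Control had 177 ± 51.5 CPM (SD, n = 3). S100a8, a subunit of the neutrophil protein calprotectin, had 97, 70.5 and 85.3 CPM with the CD40 agonist, against 861, 613 and 79.98 CPM with CSF1Ri (adjusted p 0.168), and CSF1Ri replicate 3 lay within the CD40 agonist range. Of 14 neutrophil markers Retnlg alone passed. With the CD40 agonist 9 were lower and 5 higher, with a median of -1.45. Without overlap 4 were lower and 3 higher, against 10.1% and 11.2% of all genes, so the markers did not move as 1. The summed level was 655, 481 and 478 CPM with the CD40 agonist, against 3319, 2436 and 791 CPM with CSF1Ri.

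None of the 13 measured of 15 mast cell and basophil markers passed. Hdc, the enzyme that makes histamine, had 126, 124 and 106 CPM with the CD40 agonist, against 1029.5, 924 and 156 CPM with CSF1Ri (log2 fold change -2.57 ± 0.52, adjusted p 0.0663). Without CSF1Ri replicate 3 its log2 fold change was -3.02 (adjusted p 0.000827). Il4, the cytokine of type 2 immunity, had 5.47, 2.004 and 1.83 CPM with the CD40 agonist, against 20.7, 23.6 and 16.3 CPM with CSF1Ri (adjusted p 0.0675), here without a low CSF1Ri library. The summed level of the 13 markers was 682, 547 and 381 CPM with the CD40 agonist, against 1790.0, 1798 and 631 CPM with CSF1Ri, overlapping through CSF1Ri replicate 3. Cma1, a mast cell chymase, went the other way at 24.8, 40.2 and 23.1 CPM with the CD40 agonist, against 14.7, 7.98 and 13.1 CPM with CSF1Ri (adjusted p 0.0881).

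With the CD40 agonist 2 NK cell genes rose. NK cells are innate lymphocytes that kill by granule release. Nkg7, a granule membrane protein of killer cells, had 319, 336 and 173 CPM with the CD40 agonist, against 77.6, 100.4 and 107 CPM with CSF1Ri (log2 fold change 1.54 ± 0.23, adjusted p 0.019). Gzma, the granule protease granzyme A, had 628, 652 and 333 CPM with the CD40 agonist, against 159.7, 164 and 229 CPM with CSF1Ri (log2 fold change 1.54 ± 0.28, adjusted p 0.045). CD40 agonist replicate 3 was the lowest of its group in both and still above every CSF1Ri library. These 2 of 12 NK markers passed, where 0.387% of all genes did. All 12 were higher, and the median log2 fold change was 1.56. Without overlap 9 were higher, where 11.2% of all genes were. Ncr1, the activating receptor NKp46, had 201, 298 and 126 CPM with the CD40 agonist, against 68, 45.9 and 96.7 CPM with CSF1Ri (adjusted p 0.0991), and Ifng, the cytokine interferon gamma, had 17.6, 19.5 and 11.3 CPM with the CD40 agonist, against 3.09, 3.15 and 7.37 CPM with CSF1Ri (adjusted p 0.0875). The summed level was 1766, 2029.6 and 1011 CPM with the CD40 agonist, against 595, 616 and 835 CPM with CSF1Ri. Calls were made for Nkg7 and Gzma in 8 and 4 of the 12 fits with a library left out.

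Ctsw, Klra4 and Sh2d2a were among the 12 largest rises and are in no list, so no count or test stands behind placing them together. Ctsw, cathepsin W of cytotoxic cells, had 48.3, 53.8 and 33.8 CPM with the CD40 agonist, against 13.9, 7.05 and 10.1 CPM with CSF1Ri (log2 fold change 2.13 ± 0.34, adjusted p 0.0262). Klra4, an activating receptor of the Ly49 family whose near-identical members make its level uncertain, had 26.4, 27.2 and 18.3 CPM with the CD40 agonist, against 5.87, 5.88 and 6.82 CPM with CSF1Ri (log2 fold change 1.95 ± 0.33, adjusted p 0.0369). Sh2d2a, a T cell adaptor, had 18.2, 27.2 and 17.6 CPM with the CD40 agonist, against 7.16, 4.68 and 4.96 CPM with CSF1Ri (log2 fold change 1.91 ± 0.32, adjusted p 0.0324). No value overlapped between the groups in the 3 genes. Klrd1, which was picked from the passing genes after its values were seen, encodes the CD94 chain of NK receptors. It had 91.1, 101 and 65.9 CPM with the CD40 agonist, against 25, 20.8 and 44 CPM with CSF1Ri (log2 fold change 1.52 ± 0.27, adjusted p 0.0433).

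T and B cell markers had higher values, with 1 gene passing. None of 14 T cell markers passed, though all 14 were higher, with a median log2 fold change of 0.78. Without overlap only 2 were higher, where 11.2% of all genes were, and 12 overlapped. With 1 library left out, from 10 to 14 were higher and the median ran from 0.26 to 1.20. The summed level was 207, 237 and 344 CPM with the CD40 agonist, against 148, 155 and 171 CPM with CSF1Ri. Il7r, the interleukin-7 receptor, overlapped, with 86.9, 114 and 157 CPM with the CD40 agonist, against 91.8, 83.1 and 97.3 CPM with CSF1Ri (adjusted p 0.468). Lck, the kinase of the T cell receptor, had 60.2, 85.7 and 56.2 CPM with the CD40 agonist, against 17.9, 30.5 and 17 CPM with CSF1Ri (adjusted p 0.0753). Cd8a, the co-receptor of killer T cells, had 12.7, 7.74 and 13.1 CPM with the CD40 agonist, against 4.21, 4.12 and 4.9 CPM with CSF1Ri (adjusted p 0.288). Ms4a1, which encodes the B cell antigen CD20, was the 1 of 10 measured B cell markers to pass, and 9 were higher with a median of 1.66. It had 13.7, 9.98 and 4.62 CPM with the CD40 agonist, against 0.17, 0.262 and 0.117 CPM with CSF1Ri (log2 fold change 5.67 ± 0.81, adjusted p 0.019), with no overlap between the groups. Cd79b, a signalling chain of the B cell receptor, had 31.9, 45.4 and 26.5 CPM with the CD40 agonist, against 12.1, 18.5 and 13 CPM with CSF1Ri (adjusted p 0.0823), and Ighm, the IgM heavy chain, had 226, 294 and 292 CPM with the CD40 agonist, against 140.0, 173 and 140.1 CPM with CSF1Ri (adjusted p 0.127).

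**Figure D5:**
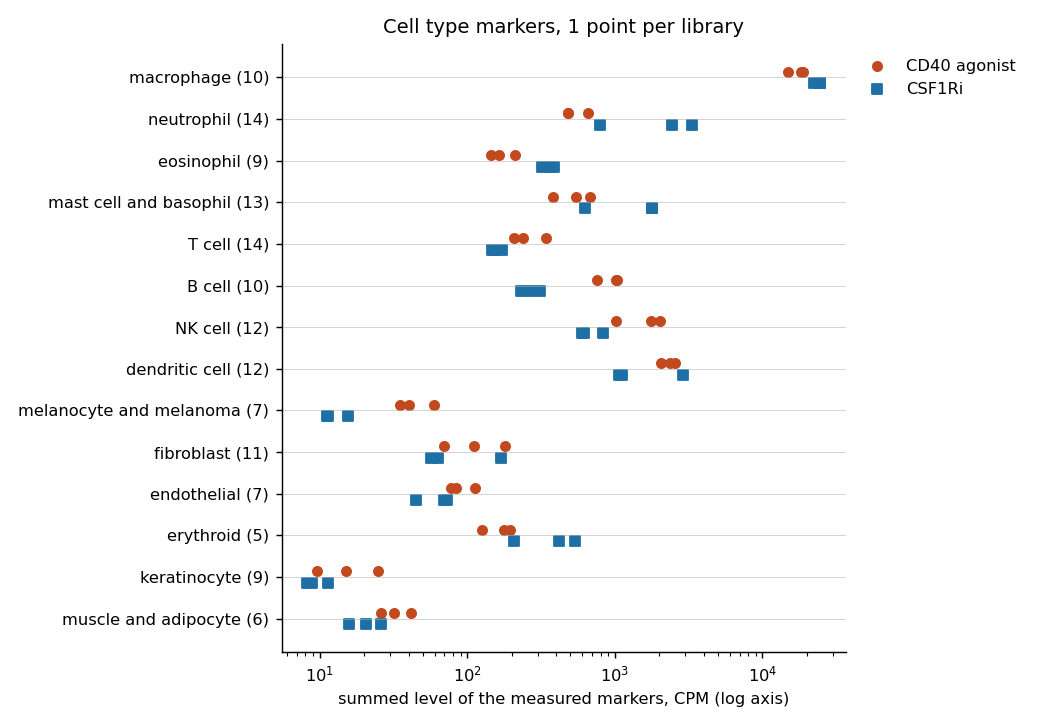
Summed CPM of the measured markers of 14 cell types (rows, number measured in brackets) on a log horizontal axis, with 1 point per library. CD40 agonist points lie wholly to the right of CSF1Ri points for T, B and NK cell, melanocyte, endothelial, and muscle and adipocyte markers, and wholly to the left for macrophage, neutrophil, eosinophil and erythroid markers; dendritic, mast cell and basophil markers overlap through CSF1Ri replicate 3.

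Most of the largest rises among genes with a mean of at least 5 CPM lay outside the lists. Pald1, a phosphatase-like protein, had 6.47, 19.5 and 17.8 CPM with the CD40 agonist, against 0.17, 0.0749 and 0.35 CPM with CSF1Ri (log2 fold change 6.15 ± 0.80, adjusted p 0.0182). Hpgds, the synthase of prostaglandin D2 in blood cells, had 71.3, 89.4 and 148 CPM with the CD40 agonist, against 2.78, 3.52 and 1.95 CPM with CSF1Ri (log2 fold change 5.22 ± 0.87, adjusted p 0.0324). Both were low in all CSF1Ri libraries, and in Control they stood at 4.01 ± 1.46 and 5.79 ± 3.01 CPM (SD, n = 3). Dnase1l3, a secreted nuclease that clears DNA from dying cells, had 22, 23 and 61.7 CPM with the CD40 agonist, against 2.003, 3.37 and 5.36 CPM with CSF1Ri (log2 fold change 3.31 ± 0.51, adjusted p 0.0236). Serpinb6a, a protease inhibitor with close family members, had 52.5, 39.5 and 46.2 CPM with the CD40 agonist, against 4.52, 4.08 and 6.59 CPM with CSF1Ri (log2 fold change 3.18 ± 0.44, adjusted p 0.019). Without CSF1Ri replicate 3 the log2 fold change of Pald1 was 6.86 (adjusted p 0.0173), and without CD40 agonist replicate 3 that of Dnase1l3 was 2.66 (adjusted p 0.0622). For Dnase1l3 and Serpinb6a Control was close to the CD40 agonist or between the groups, at 26.6 ± 7.44 and 26.7 ± 4.47 CPM (SD, n = 3).

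Slc12a2, a sodium, potassium and chloride cotransporter, had 128, 79.6 and 87.2 CPM with the CD40 agonist, against 18.2, 14.5 and 26.6 CPM with CSF1Ri (log2 fold change 2.31 ± 0.41, adjusted p 0.045), with Control at 93.1 ± 10.6 CPM (SD, n = 3). F11r, the junctional adhesion molecule JAM-A, had 71.2, 97.9 and 123 CPM with the CD40 agonist, against 20.8, 29.5 and 35 CPM with CSF1Ri (log2 fold change 1.78 ± 0.25, adjusted p 0.019). In neither did the groups overlap. Cd82, a membrane tetraspanin, had 118, 146 and 151 CPM with the CD40 agonist, against 54.9, 59.5 and 39.5 CPM with CSF1Ri (log2 fold change 1.43 ± 0.18, adjusted p 0.0182), and Pmaip1, the cell death factor NOXA, had 272, 250.1 and 233 CPM with the CD40 agonist, against 78.2, 91.3 and 112 CPM with CSF1Ri (log2 fold change 1.42 ± 0.20, adjusted p 0.019).

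Among the largest falls, Adamdec1, a protease of mature macrophages and dendritic cells, had no count in any CD40 agonist or combination library and 27.1, 7.38 and 26.2 CPM with CSF1Ri. Against a floor of 3 counts over the group it was at least 633-fold lower with the CD40 agonist than with CSF1Ri (adjusted p 0.019), a limit for counting error only. Control had 5.62, 2.22 and 4.42 CPM. G0s2, an inhibitor of fat breakdown, had 3.59, 4.99 and 6.31 CPM with the CD40 agonist, against 96.5, 69.6 and 24.7 CPM with CSF1Ri (log2 fold change -3.68 ± 0.55, adjusted p 0.0199). F5, coagulation factor V, had 17.1, 22 and 10.5 CPM with the CD40 agonist, against 143, 79.5 and 86.3 CPM with CSF1Ri (log2 fold change -2.64 ± 0.47, adjusted p 0.045). Myo1d, an unconventional myosin, had 7.79, 3.77 and 2.59 CPM with the CD40 agonist, against 22.9, 25.1 and 27.6 CPM with CSF1Ri (log2 fold change -2.42 ± 0.40, adjusted p 0.0324). All of these were apart between the groups, and for G0s2 the lowest CSF1Ri library was replicate 3. Control had 20.3 ± 7.45 CPM for G0s2, 24.2 ± 4.27 CPM for F5 and 5.91 ± 0.887 CPM for Myo1d (SD, n = 3). For F5 and Myo1d Control was thus nearer to the CD40 agonist than to CSF1Ri.

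Rab44, a large Rab GTPase of granulated immune cells, had 20.8, 23.1 and 23.2 CPM with the CD40 agonist, against 125, 106 and 71.5 CPM with CSF1Ri (log2 fold change -2.17 ± 0.34, adjusted p 0.0241). Control stood at 21.9 ± 6.35 CPM (SD, n = 3), level with the CD40 agonist. Gapt, a transmembrane adaptor of B and myeloid cells that binds GRB2, had 30.2, 34.2 and 41.5 CPM with the CD40 agonist, against 147, 109 and 153 CPM with CSF1Ri (log2 fold change -1.95 ± 0.20, adjusted p 0.016). Gapt had one of the smallest p-values of all genes, with Control at 62.7 ± 9.7 CPM (SD, n = 3) between the groups. Leng8 and the odorant receptor family gene Olfr1033 had log2 fold changes of -1.27 ± 0.22 and -1.20 ± 0.19 (adjusted p 0.0394 and 0.0256). For Leng8 the means were 30.0 CPM with the CD40 agonist, 72.3 with CSF1Ri and 60.1 in Control. For Olfr1033 they were 88.6, 204 and 92.0 CPM, with Control level with the CD40 agonist. Gm9973, a gene of uncertain level because it resembles other genes, had 160.3, 123 and 123 CPM with the CD40 agonist, against 518, 446 and 321 CPM with CSF1Ri (log2 fold change -1.66 ± 0.19, adjusted p 0.016).

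Of the 62 called genes 11 had a mean below 5 CPM, and of these Il5ra and Ms4a1 are list members described above. The others named here were chosen after their values were seen. With no count in any CSF1Ri library, Bub1b, a kinase of the mitotic checkpoint, had 6.35, 6.52 and 1.37 CPM with the CD40 agonist, which is at least 143-fold higher when 3 counts over the group are taken as the floor. AY761185, Lamb2, Tcrg-C4, Vwa3b and Rps4l also had no count with CSF1Ri and were at least 81.3-, 52.7-, 47.1-, 39.4- and 39.2-fold higher. All of their CD40 agonist values were above 0 but low, so the size of these rises is set by few counts.

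Proliferation and mitochondrial transcripts mostly had higher values with the CD40 agonist. Of 24 cell cycle genes none passed and 23 were higher, with a median log2 fold change of 0.94. Bub1b, described above, passed but is not in this list. Without overlap 9 of the 24 were higher, against 11.2% of all genes. Top2a, the DNA-untangling enzyme of dividing cells, had 30.6, 22.2 and 66.4 CPM with the CD40 agonist, against 7.43, 2.96 and 8.72 CPM with CSF1Ri (adjusted p 0.0672), and Mki67, the proliferation marker, had 41.4, 43.5 and 55.1 CPM with the CD40 agonist, against 32.7, 21.2 and 19 CPM with CSF1Ri (adjusted p 0.135). All 13 measured transcripts encoded by the mitochondrial genome were higher without overlap, where 11.2% of all genes were. Their median was 0.63, and mt-Cytb, a subunit of respiratory complex III, passed. It had 2087, 2094 and 2152 CPM with the CD40 agonist, against 1092, 1318 and 1259 CPM with CSF1Ri (log2 fold change 0.79 ± 0.11, adjusted p 0.019), and Control had 1644 ± 195 CPM (SD, n = 3). The share of mitochondrial transcripts also moves with RNA quality and with the kinds of cell in a sample, and their part was not tested.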

How the data were processed

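RNA from 12 samples was sequenced (3 per group). Per the labels' protocols, unstranded libraries were made from 50 ng of RNA and read as 75-bp pairs, with 6 libraries per lane. Per the submitters' processing notes, STAR, mm10, HTSeq and DESeq2 were used. The files, per the file headers, instead hold estimated counts and TPM per transcript, and the sources used here do not name the program that made them. No normalization was applied to the estimated counts deposited by the authors. The TPM values deposited by the authors were used in 1 alternative only, with a pseudocount of 1.

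Transcripts were matched to GENCODE M21 (GRCm38) by identifiers with the version numbers removed. Of them 98.87% matched, and the unmatched ones were left out. Estimated counts were summed per gene and rounded, which gave 34989 genes, and coordinates are GENCODE M21 gene spans on GRCm38, 1-based. A term per group was fitted to all 12 libraries together with edgeR 4.0.16 under R 4.3.3, using TMM, filterByExpr (16027 genes kept) and robust quasi-likelihood tests at 8 residual degrees of freedom, Benjamini-Hochberg adjusted over all genes. SE is the fit's standard error, SD that of 3 libraries. Library totals ran from 26316328 to 39818657 counts. Floors of 3 counts reflect counting error alone, because without molecular identifiers PCR reads are no independent molecules. The fit was tested on simulated data that had less spread between libraries than these data and no outlying library, so its reach here is limited.

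The genes named were Csf1r, Cd40, Csf1 and Lyz2; the 12 largest passing rises and falls with no overlap and a mean of at least 5 CPM over the 6 libraries, leaving out symbols of the form Gm plus a number or ending in Rik; the passing members of 25 pathway and 14 cell type lists with up to 3 others of smallest p; and the 3 highest markers per cell type. Not every gene so named is described. Other passing genes were named after their values were seen. The members and lists were chosen with earlier results of these data known. Genes with near-identical copies (H2, Klra, Ear, Gbp and hemoglobin families, pseudogenes) and genes overlapped by an antisense one are uncertain. Alternatives used DESeq2 1.42.0 and limma 3.58.1. The main fit did not pair samples by replicate number, since the labels do not say what the numbers mark.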

Additional observations from a re-analysis of the deposited data

How the results depend on the processing

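The count of 62 genes moved with the tool. DESeq2 called 944 (590 higher and 354 lower with the CD40 agonist), including all 62, and 98 at the submitters' threshold of an absolute log2 fold change of 1.5 and a Sidak-Holm p of at most 0.01, including 42. The bias-adjusted form of edgeR's fit called 135, limma on log2(TPM + 1) called 172, limma voom 54, RLE size factors 61, no low-count filter 52 and the 6 compared libraries alone 53, of which 22 were among the 62. Leaving out 1 library gave from 0 to 218 calls. Without CD40 agonist replicate 1 and CSF1Ri replicate 3, an alternative chosen after seeing the data, 57 genes were called, 20 of them among the 62. No called gene reversed in any of the 22 alternatives. With the replicate number as a block 31 genes were called (22 higher and 9 lower), 26 of them among the 62. Same-numbered CD40 agonist and CSF1Ri libraries correlated at 0.00529, 0.00234 and 0.0160 in their deviations from the group means. Whether the numbers mark a shared day or cage was not tested. Of the 39 list medians, 9 changed sign under some alternative: inflammatory cytokines, NF-kB, immediate early, interferon gamma, co-stimulation, glycolysis, macrophage, fibroblast, and muscle and adipocyte. Genes at a few counts per library limit the size of a fold change, and 3 libraries per group with a biological coefficient of variation of 61.0% limit what could pass.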

Other observations

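Most interferon-response genes had lower values with the CD40 agonist, and none passed. Of 26 type I interferon response genes none passed, 21 were lower and the median log2 fold change was -0.49. Only 4 of the 26 were lower without overlap, where 10.1% of all genes were, so this count is little above that share. Ifih1, the RNA sensor MDA5, had 29.2, 24.1 and 37.3 CPM with the CD40 agonist, against 52.1, 77.5 and 62.7 CPM with CSF1Ri (adjusted p 0.172), and Irf7, the factor that amplifies interferon production, had 59.3, 71.1 and 69.2 CPM with the CD40 agonist, against 148, 104 and 111 CPM with CSF1Ri (adjusted p 0.384). Of 20 interferon gamma response genes none passed and 12 were lower, with a median of -0.14 that turned sign without CSF1Ri replicate 3. Irf1, an early interferon gamma target, had 209, 186 and 217 CPM with the CD40 agonist, against 313, 288 and 466 CPM with CSF1Ri (adjusted p 0.156). Gbp2b, a guanylate-binding protein of a family with near-identical members, had 15.4, 21.5 and 32 CPM with the CD40 agonist, against 5.6, 10.3 and 9.91 CPM with CSF1Ri (adjusted p 0.147). Of 19 class I presentation genes none passed and 14 were higher, with a median of 0.12.

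None of 17 measured of 18 co-stimulation and checkpoint genes passed, and their median was 0.00. Cd80, a ligand of CD28, had 14.2, 19.9 and 18.2 CPM with the CD40 agonist, against 35.3, 26.3 and 26.9 CPM with CSF1Ri (adjusted p 0.169). None of 18 Fc receptor and phagocytosis genes passed, and 14 were lower with a median of -0.28. Without overlap 2 were lower and 3 higher, against 10.1% and 11.2% of all genes. Syk, the kinase downstream of Fc receptors, had 196, 211 and 173 CPM with the CD40 agonist, against 325, 332 and 294 CPM with CSF1Ri (adjusted p 0.0672), and Fcgr4, an activating Fc receptor, had 84.8, 68.9 and 61.2 CPM with the CD40 agonist, against 26.1, 41.8 and 35.5 CPM with CSF1Ri (adjusted p 0.102). Of 20 lysosome genes none passed and 15 were higher, with a median of 0.32. Ctsb, the protease cathepsin B, had 2615, 3309.7 and 3326 CPM with the CD40 agonist, against 2025, 2066 and 1571 CPM with CSF1Ri (adjusted p 0.0675). Of 24 glycolysis and hypoxia genes none passed, and the median was -0.08.

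No marker of melanocytes, fibroblasts, endothelial cells, red cells, keratinocytes, muscle or adipocytes passed. The summed level of 7 measured of 10 melanocyte markers was 59.8, 34.9 and 40.3 CPM with the CD40 agonist, against 15.6, 11.5 and 11.1 CPM with CSF1Ri, without overlap, and 3 of the 7 were at 0 in all CSF1Ri libraries. Dct, a pigment enzyme, had 36.6, 9.98 and 13.3 CPM with the CD40 agonist, against 4.58, 3.71 and 4.05 CPM with CSF1Ri (adjusted p 0.15). The sums were 111, 69.2 and 182 CPM with the CD40 agonist, against 63.6, 56.4 and 170.2 CPM with CSF1Ri for 11 fibroblast markers. For 7 measured of 10 endothelial markers they were 113, 77.9 and 83.5 CPM with the CD40 agonist, against 69.3, 45.2 and 72.9 CPM with CSF1Ri. For 5 measured of 7 erythroid markers they were 177, 195 and 126 CPM with the CD40 agonist, against 421, 536 and 209 CPM with CSF1Ri. Without overlap 4 of the 5 were lower, where 10.1% of all genes were. Keratinocyte markers, 9 measured of 10, summed to 15.1, 9.51 and 24.9 CPM with the CD40 agonist, against 8.25, 8.92 and 11.3 CPM with CSF1Ri, and muscle and adipocyte markers, 6 measured of 10, to 41.6, 32.1 and 26.1 CPM with the CD40 agonist, against 15.9, 20.7 and 25.9 CPM with CSF1Ri.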
